A study of Homo sapiens with 8 samples.

Results

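The genes described here encode the CST complex, shelterin and telomerase reverse transcriptase, 10 genes of the 58735 in the expression table. They were taken by gene name: STN1, CTC1 and TEN1 for CST, TERF1, TERF2, TERF2IP, TINF2, ACD and POT1 for shelterin, and TERT. STN1 was selected on its FPKM, which averaged 4.33-fold higher with MAPKAPK2 shRNA #1 and 4.00-fold higher with shRNA #2 than in control cells, so its values in that comparison are a description and carry no test, while the others are listed for the complex they belong to. RNA was sequenced from HCT116, a human colorectal carcinoma cell line, in 8 libraries, 2 for each of 4 groups. Cells with MAPKAPK2 shRNA #1 and cells with MAPKAPK2 shRNA #2 (shRNA 1 and shRNA 2 below) were kept at 20 mM glucose. The labels give no time in that medium for these cells. Cells with a control shRNA were kept for 24 h in medium at 0 mM or at 20 mM glucose, so every group carried an shRNA and the glucose series was run in control cells alone. MAPKAPK2 encodes MK2, a kinase downstream of p38 that acts on mRNA stability and translation. The labels do not say whether the shRNA lines were pools or clones, or whether the replicates were separate cultures, so p-values measure the spread between these libraries, which may be technical.

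Shelterin coats the double-stranded repeats and the single-stranded overhang at chromosome ends and keeps them from being read as DNA breaks. CST binds single-stranded telomeric DNA, limits extension by telomerase, and brings in DNA polymerase alpha-primase to fill in the complementary strand. Most colorectal carcinoma lines keep their telomeres through telomerase, whose catalytic subunit is TERT.

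RefSeq promoter windows (GRCh38.p14, 250 bases before to 50 after the gene start) were matched for 6 of the 10 genes: STN1, TERF2IP, TINF2, ACD, POT1 and TERT; CTC1, TEN1, TERF1 and TERF2 were not matched. The windows of the STN1 and TERF2IP genes, which had higher levels with both shRNAs, and of TERT, which had lower ones, are shown 5′ to 3′ on the strand of the gene. Capitals mark GGGCGG, the core of the GC box bound by Sp1-family factors, its reverse complement CCGCCC, and CACGTG, an E-box.
STN1, chr10:103918135-103918434, minus strand: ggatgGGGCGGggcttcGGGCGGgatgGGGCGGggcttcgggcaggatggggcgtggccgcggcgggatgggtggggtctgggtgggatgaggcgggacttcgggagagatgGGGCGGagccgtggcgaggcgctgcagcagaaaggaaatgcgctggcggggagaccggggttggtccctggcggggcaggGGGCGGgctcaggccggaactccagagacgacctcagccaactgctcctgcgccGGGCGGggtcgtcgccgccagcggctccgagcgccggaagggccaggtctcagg
TERF2IP, chr16:75647523-75647822, plus strand: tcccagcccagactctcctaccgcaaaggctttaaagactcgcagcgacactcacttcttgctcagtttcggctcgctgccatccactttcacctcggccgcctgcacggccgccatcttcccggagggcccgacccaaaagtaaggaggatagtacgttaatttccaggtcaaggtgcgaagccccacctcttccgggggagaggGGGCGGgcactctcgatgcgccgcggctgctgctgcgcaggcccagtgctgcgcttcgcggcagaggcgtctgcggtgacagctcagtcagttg
TERT, chr5:1295019-1295318, minus strand: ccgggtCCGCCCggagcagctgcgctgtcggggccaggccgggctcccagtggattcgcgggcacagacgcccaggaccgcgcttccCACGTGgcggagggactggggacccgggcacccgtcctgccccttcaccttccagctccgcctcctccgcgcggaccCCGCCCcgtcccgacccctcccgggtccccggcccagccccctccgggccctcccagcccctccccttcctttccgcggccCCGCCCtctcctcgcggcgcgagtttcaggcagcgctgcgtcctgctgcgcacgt
The STN1 window held GGGCGG at 6 places, all on the gene's own strand, the farthest at -245 and the nearest at -4 from the gene start. The TERF2IP window held 1 such match, at -44, and the TERT window 3, all on the opposite strand. TERT alone of these 3 held CACGTG, at -163. Searched on both strands, GGGCGG was present in 45.0% and CACGTG in 7.26% of the 35116 RefSeq windows of this length. CCAAT (34.6% of all windows) and TATAAA (11.5%) were in none of the 3, and no marked matches overlapped. GC content was 74.7% for STN1, 63.0% for TERF2IP and 77.3% for TERT, against a median of 58.7%. A match is a description of the letters in the window, not a binding site.

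The libraries held between 14252316 and 19975449 reads in genes, with 13821 to 14611 genes at 1 FPKM or more. FPKM is the number of fragments per kilobase of all annotated exons, scaled to a library size set by the authors. Levels are thus per length, and comparisons between genes depend on the annotated exon lengths. The authors' library size was not the number of reads in genes. Reads in genes were 0.970 and 0.932 of it with shRNA 1 and 1.05 and 1.05 with shRNA 2. They were 0.965 and 0.999 of it in 0 mM controls and 0.967 and 0.980 in 20 mM controls. MAPKAPK2 itself read 2.77 and 2.54 FPKM with shRNA 1, 0.982 and 0.800 with shRNA 2, 17.9 and 18.9 in control cells without glucose, and 16.4 and 16.2 in control cells at 20 mM glucose. The target was lower in all 4 shRNA libraries than in all 4 controls, with 16.3% of the 20 mM control mean left with shRNA 1 and 5.46% with shRNA 2. On the third principal component (11.4% of variance) replicate 2 of the 0 mM controls, at 32.4, and replicate 2 of shRNA 2, at 18.4, lay apart from the others, at -16.7 to 0.964. Mitochondrial genes took 11.1% and 9.62% of reads with shRNA 1, 7.06% and 9.10% with shRNA 2, 7.28% and 8.72% in 0 mM controls and 6.83% and 7.82% in 20 mM controls. The part of either in the results below was not tested, apart from the values given without a library. No member's call changed without that 0 mM library, and 2 did without that shRNA 2 library, both of them differences between the shRNAs. All 7 epithelial markers were detected in every library (CDH1, the lowest, at 9.62 FPKM or more), and 10 of 11 markers of immune, endothelial and fibroblast cells stayed below 1 FPKM. DCN was at 0 throughout and COL1A1 lay between 3.84 and 6.72 FPKM. In bulk RNA, fewer cells expressing a gene and less RNA per cell cannot be told apart.

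STN1 (ENSG00000107960, chr10:103882542-103918205, minus strand) encodes the small CST subunit that bridges CTC1 and TEN1 and contacts polymerase alpha-primase. It stood at 66.3 and 62.7 FPKM with shRNA 1, 61.7 and 57.6 with shRNA 2, 17.1 and 19.5 in controls without glucose, and 14.4 and 15.4 in controls at 20 mM. All 4 shRNA libraries were high and all 4 controls low, with no overlap. The log2 fold change, on the log2(FPKM + 1) scale used throughout, was 2.04 with shRNA 1 and 1.93 with shRNA 2 against the same 2 control libraries. These values rest on 1499 to 2017 reads per shRNA library and 390 to 572 per control library. The difference between the shRNAs was -0.11 (shRNA 2 minus shRNA 1, SE 0.10), and -0.33 after quantile normalization. STN1 was chosen for its rise with both shRNAs, so that difference is also a description without a test. Withdrawal of glucose gave 0.28 (SE 0.10), with both 0 mM libraries above both 20 mM libraries. Those 20 mM libraries also entered the choice of STN1, so this value too is a description without a test.

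CTC1 (ENSG00000178971, chr17:8224821-8248095, minus strand) encodes the large scaffold subunit of CST. It had 8.15 and 7.60 FPKM with shRNA 1, 10.1 and 9.38 with shRNA 2, 12.8 and 13.7 in 0 mM controls, and 10.5 and 10.5 in 20 mM controls. Both shRNA 1 libraries were lowest and both 0 mM libraries highest, and all 4 shRNA libraries lay below all 4 controls. CTC1 fell with shRNA 1 (log2 fold change -0.37, SE 0.09; adjusted p = 0.0291), a call lost when either shRNA 1 library or either 20 mM control was left out (adjusted p up to 0.161). Over both shRNAs it did not pass (-0.23, SE 0.08; adjusted p = 0.0800), nor did the value of 0.32 without glucose (SE 0.09; adjusted p = 0.423). The ratio of STN1 to CTC1 in FPKM was 8.13 and 8.24 with shRNA 1, 6.12 and 6.14 with shRNA 2, 1.34 and 1.42 in 0 mM controls, and 1.38 and 1.47 in 20 mM controls. The subunits differed in level by a like factor in the 2 control conditions, and by a larger one in every shRNA library. The larger factor follows in large part from the choice of STN1 for its rise with both shRNAs.

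TEN1 (ENSG00000257949, chr17:75979220-76000586, plus strand), the smallest CST subunit, was close to the limit of detection. It had 3 and 5 reads with shRNA 1 (0.122 and 0.251 FPKM), none in either shRNA 2 library, 7 and 3 reads in 0 mM controls (0.260 and 0.149 FPKM) and 2 reads in each 20 mM control (0.0918 and 0.0862 FPKM). Differences at these counts were not tested. An exact 95% Poisson interval for 2 reads is 0.242 to 7.22. For 0 reads a set upper limit of 3 was used, which is not an interval of that kind. The intervals cover counting error only. Of its exon bases, 75.4% are shared on the same strand with TEN1-CDK3, a readthrough gene at up to 1.40 FPKM, so reads from the shared exons cannot be assigned to TEN1 by this table. TEN1 did not pass the expression filter and was not tested.

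**Figure D1:**
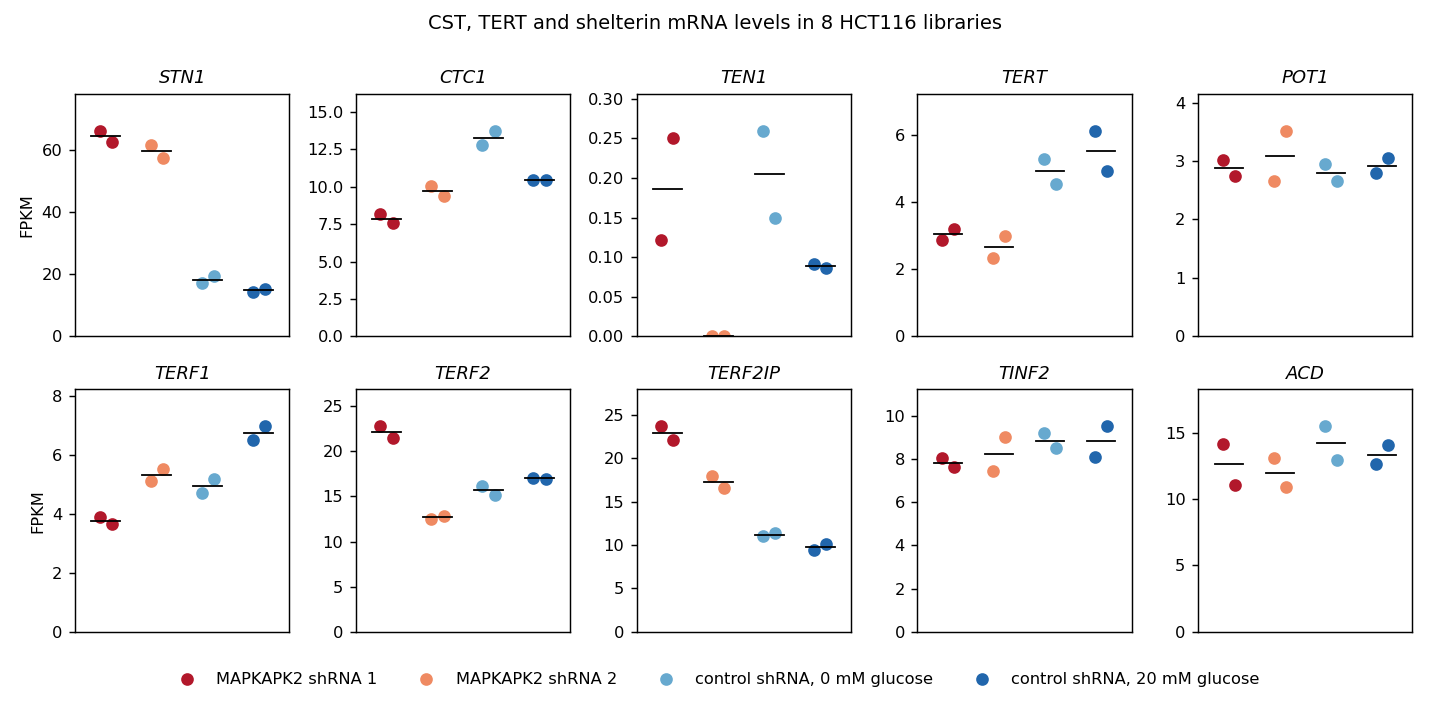
FPKM of the 10 telomere genes (vertical axes from 0, a scale of its own per gene) in 8 libraries: dots are libraries, lines are group means of 2. STN1 lies at 57.6 to 66.3 FPKM in the shRNA libraries and 14.4 to 19.5 in the controls; TERF2IP is also higher in all 4 shRNA libraries, TERT and CTC1 are lower, and TERF2 is high with shRNA 1 and low with shRNA 2.

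Among the shelterin genes, TERF2IP rose with both shRNAs, TERF1 fell over both together, TERF2 moved in opposite directions with the 2 shRNAs, and TINF2, ACD and POT1 passed no test. TERF2IP (ENSG00000166848, chr16:75647786-75761872, plus strand) encodes RAP1, which joins shelterin by binding the TERF2 protein. It stood at 23.6 and 22.1 FPKM with shRNA 1, 17.9 and 16.5 with shRNA 2, 11.03 and 11.3 in 0 mM controls, and 9.40 and 10.1 in 20 mM controls. All 4 shRNA libraries lay above all 4 controls. Its log2 fold change was 1.15 with shRNA 1 (SE 0.09; adjusted p = 0.000860), 0.76 with shRNA 2 (SE 0.09; adjusted p = 0.00242) and 0.96 over both (SE 0.08; adjusted p = 0.000883). The knockdown call held under all 15 alternatives, with adjusted p between 1.76e-05 and 0.0199. The rise was smaller with shRNA 2 (shRNA 2 minus shRNA 1, -0.39, SE 0.09; adjusted p = 0.0230), but that difference lost its call when either shRNA 1 library or replicate 2 of shRNA 2 was left out (adjusted p up to 0.139). Of TERF2IP exon bases, 5.21% overlap KARS on the opposite strand, a gene at up to 59.9 FPKM; whether reads were counted by strand is not known from the labels.

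TERF2 (ENSG00000132604, chr16:69355561-69408571, minus strand) encodes TRF2, the double-strand binding protein that shapes the telomere end into a protective loop. It had 22.7 and 21.4 FPKM with shRNA 1, 12.5 and 12.9 with shRNA 2, 16.1 and 15.2 in 0 mM controls, and 17.0 and 16.9 in 20 mM controls. The shRNA 1 libraries were highest, the shRNA 2 libraries lowest, and the controls lay between them. TERF2 rose with shRNA 1 (log2 fold change 0.36, SE 0.08; adjusted p = 0.0249) and fell with shRNA 2 (-0.39, SE 0.08; adjusted p = 0.0185), so that the mean over both was -0.02 (SE 0.07; adjusted p = 0.905). The call with shRNA 1 was lost without either shRNA 1 library or either 20 mM control (adjusted p up to 0.152), and that with shRNA 2 without either 20 mM control or with only those 2 groups in the fit (adjusted p up to 0.113). The difference between the shRNAs, -0.75 (shRNA 2 minus shRNA 1; SE 0.08; adjusted p = 0.00169), held under all 15 alternatives.

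TERF1 (ENSG00000147601, chromosome 8) encodes TRF1, the other double-strand binding subunit. It had 3.88 and 3.67 FPKM with shRNA 1, 5.13 and 5.54 with shRNA 2, 4.70 and 5.17 in 0 mM controls, and 6.51 and 6.97 in 20 mM controls. The 20 mM controls were highest and the shRNA 1 libraries lowest, while shRNA 2 overlapped the 0 mM controls. TERF1 fell over both shRNAs (log2 fold change -0.49, SE 0.08; adjusted p = 0.00961) and with shRNA 1 (-0.70, SE 0.10; adjusted p = 0.00471). With shRNA 2 the value was -0.29 (SE 0.10; adjusted p = 0.0827), and the shRNAs differed by 0.41 (shRNA 2 minus shRNA 1; SE 0.10; adjusted p = 0.0256). The call over both shRNAs was lost without either 20 mM control (adjusted p up to 0.0941). The difference between the shRNAs was lost without either shRNA 1 library, replicate 2 of shRNA 2 or either 20 mM control (adjusted p up to 0.135). The TERF1 pseudogenes in the table reached at most 0.390 FPKM, so little signal is listed on those copies, though reads shared with them could still be split.

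TINF2 encodes TIN2, which links TRF1 and TRF2 to TPP1; ACD encodes TPP1, which recruits telomerase; and POT1 binds the single-stranded overhang together with TPP1. TINF2 lay between 7.46 and 9.51 FPKM, ACD between 10.9 and 15.5, and POT1 between 2.65 and 3.52 over the 8 libraries. The groups overlapped for all 3 genes in the comparisons of the pooled shRNA libraries with the 20 mM controls. Over both shRNAs the log2 fold changes were -0.12 for TINF2 (SE 0.11; adjusted p = 0.485), -0.11 for ACD (SE 0.13; adjusted p = 0.609) and 0.02 for POT1 (SE 0.12; adjusted p = 0.938). POT1 rested on 242 to 359 reads a library, and the standard errors set the size of change that could be seen.

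TERT (ENSG00000164362, chr5:1253147-1295069, minus strand), the catalytic subunit of telomerase, was lower with both shRNAs. It had 2.89 and 3.20 FPKM with shRNA 1, 2.33 and 3.00 with shRNA 2, 5.29 and 4.55 in 0 mM controls, and 6.13 and 4.94 in 20 mM controls. All 4 shRNA libraries lay below all 4 controls, and the 0 mM and 20 mM controls overlapped. TERT fell with shRNA 1 (log2 fold change -0.69, SE 0.14; adjusted p = 0.0195), with shRNA 2 (-0.84, SE 0.14; adjusted p = 0.00971) and over both (-0.76, SE 0.13; adjusted p = 0.00878). The call over both shRNAs was lost without replicate 1 of the 20 mM controls (log2 fold change -0.63; adjusted p = 0.0881), a fit in which calls over all genes also fell to 696, against 2816 with all libraries. The call with shRNA 2 was also lost without that library (adjusted p = 0.0723), and the call with shRNA 1 without either of its own or either 20 mM library (adjusted p up to 0.120). No difference between the shRNAs was called (-0.15, SE 0.14; adjusted p = 0.512). The table rests on 203 to 504 TERT reads a library.

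**Figure D2:**
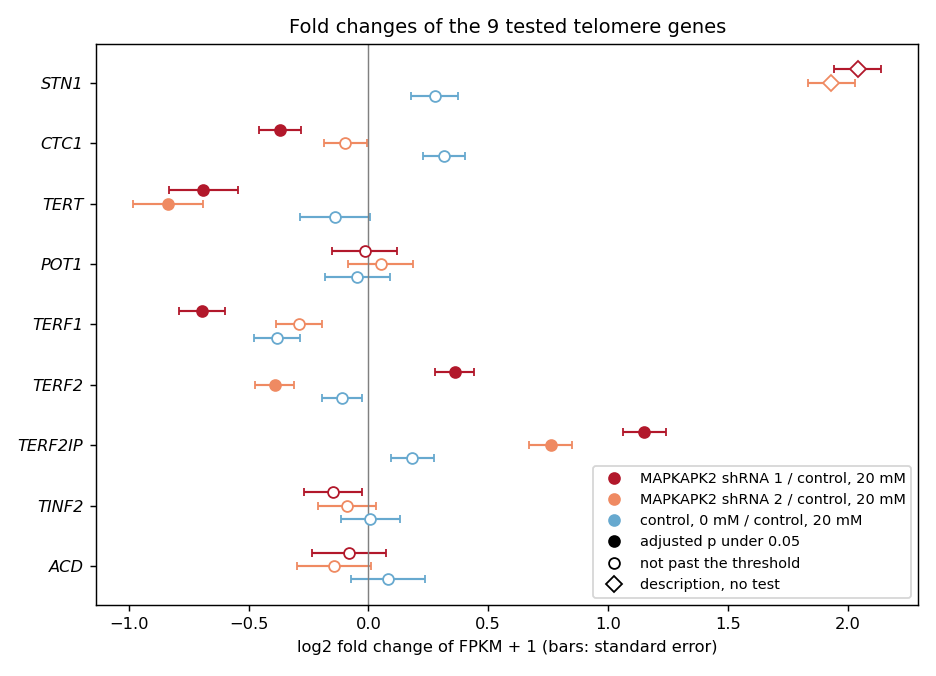
Log2 fold change of FPKM + 1 (horizontal axis, bars standard error) of the 9 telomere genes that passed the filter, for shRNA 1 and shRNA 2 against control cells at 20 mM glucose and for control cells at 0 mM against 20 mM. Filled dots passed adjusted p 0.05, open dots did not, and open diamonds give STN1 without a test. The open dot of STN1 for 0 mM against 20 mM is also a description. TERF2IP lies at 1.15 and 0.76 and TERT at -0.69 and -0.84 with shRNA 1 and shRNA 2.

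Apart from STN1, 8 members were tested against the 20 mM controls. Over both shRNAs 3 of the 8 were called, TERF2IP higher and TERF1 and TERT lower, beside 17.3% of the 16239 genes tested. With shRNA 1, 5 of 8 were called (TERF2 and TERF2IP higher, CTC1, TERF1 and TERT lower) beside 19.8% of all genes. With shRNA 2 it was 3 of 8 (TERF2IP higher, TERF2 and TERT lower) beside 18.8%. The median log2 fold change of the 8 over both shRNAs was -0.12, against -0.004 for all genes. Without replicate 1 of the 20 mM controls the 3 counts became 1, 2 and 1, and TERF2IP was in each. With shRNA 1 the count was also 2 without either shRNA 1 library or replicate 2 of the 20 mM controls. Between the shRNAs 3 of 9 members differed (TERF1, TERF2 and TERF2IP) beside 22.2% of all genes; without replicate 2 of shRNA 2 or either shRNA 1 library the count was 1, TERF2. STN1, counted among those 9, was chosen for its values with both shRNAs and carries no test there either. The shRNA 1 and shRNA 2 comparisons share their control libraries, so their values are given side by side only.

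Without glucose none of the 9 members was called by limma, nor was any gene (0% of 16239; lowest adjusted p 0.0863), although 1421 genes had an unadjusted p under 0.05. The voom fit of the recovered reads called 28 genes (0.172%) and no member. STN1, counted among those 9, carries no test here, since the 20 mM controls entered its choice. The members' median log2 fold change was 0.01, against -0.01 for all genes. STN1, CTC1 and TERF2IP were higher and TERF1 and TERF2 lower in both 0 mM libraries than in both 20 mM libraries, but 41.3% of all tested genes showed no overlap between these 2 pairs. The values were 0.18 for TERF2IP (SE 0.09; adjusted p = 0.628), -0.38 for TERF1 (SE 0.10; adjusted p = 0.397), -0.11 for TERF2 (SE 0.08; adjusted p = 0.770) and -0.14 for TERT (SE 0.14; adjusted p = 0.856). Comparing all 4 shRNA libraries with all 4 controls, the values of STN1 and TERF2IP (higher) and CTC1 and TERT (lower) did not overlap, as was true of 20.9% of genes; STN1 was chosen for this.

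The order of levels changed between groups. In 20 mM controls TERF2 led at 17.0 ± 0.0910 FPKM (SD, n = 2), followed by STN1 at 14.9 ± 0.687, ACD at 13.3 ± 1.03, CTC1 at 10.5 ± 0.0155, TERF2IP at 9.74 ± 0.481, TINF2 at 8.81 ± 0.987, TERF1 at 6.74 ± 0.325, TERT at 5.54 ± 0.840, POT1 at 2.92 ± 0.177 and TEN1 at 0.0890 ± 0.00391. Among neighbours in that order, only TERF2IP and TINF2 overlapped. In 0 mM controls STN1 (18.3 ± 1.69 FPKM) stood above TERF2 (15.7 ± 0.656), which overlapped ACD (14.2 ± 1.80), as ACD did CTC1 (13.3 ± 0.671). With shRNA 1 STN1 (64.5 ± 2.52 FPKM) was followed by TERF2IP (22.9 ± 1.12) and TERF2 (22.1 ± 0.920), which overlapped. With shRNA 2 STN1 (59.6 ± 2.92 FPKM) was followed by TERF2IP (17.2 ± 0.978) and then TERF2 (12.7 ± 0.230), which overlapped ACD (11.99 ± 1.53). TERT and POT1 overlapped at the low end with either shRNA, which they did not in 20 mM controls.

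Ratios within shelterin moved with these shifts. TERF2IP over TERF2 was 1.04 and 1.03 with shRNA 1, 1.43 and 1.28 with shRNA 2, 0.684 and 0.746 in 0 mM controls and 0.551 and 0.595 in 20 mM controls. In FPKM, TERF2IP thus exceeded TERF2 in all 4 shRNA libraries and in no control. FPKM divides by all annotated exon bases, 3379 for TERF2IP and 5621 for TERF2. In reads TERF2IP stayed below TERF2 in every library, so which mRNA was more abundant depends on those lengths. TERF1 over TERF2 was 0.171 and 0.171 with shRNA 1, 0.409 and 0.430 with shRNA 2, 0.291 and 0.340 in 0 mM controls and 0.382 and 0.412 in 20 mM controls, lowest with shRNA 1. The 6 shelterin genes summed to 75.5 and 68.6 FPKM with shRNA 1, 58.8 and 58.4 with shRNA 2, 59.5 and 55.8 in 0 mM controls and 56.5 and 60.6 in 20 mM controls. Only the shRNA 1 sums lay outside the range of the controls.

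By the root mean square difference of centred log2(FPKM + 1) profiles over the 8 libraries, the protein-coding genes most like STN1 were BTG2 (0.127), PXDN (0.163), HMGA2 (0.165), AK4 (0.200) and ATP5MC1 (0.221), of 11445 ranked. BTG2, an antiproliferative p53 target, had 33.5 and 32.0 FPKM with shRNA 1, 32.2 and 29.2 with shRNA 2, 9.57 and 9.62 in 0 mM controls and 8.57 and 9.62 in 20 mM controls. HMGA2, a chromatin architectural protein, had 51.9 and 53.4 FPKM with shRNA 1, 54.7 and 64.5 with shRNA 2, 13.4 and 15.1 in 0 mM controls and 14.2 and 13.4 in 20 mM controls. All libraries enter these profiles and the genes were ranked by their values, so they carry no test. TERF2IP ranked 164 (0.504), and the other 7 members that passed the filter ranked between 4902 (POT1) and 11031 (TERT).

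Of the genes that start within 500 kb of STN1 on chromosome 10, 31 were in the table and 14 passed the filter. Over both shRNAs 4 of the 14 were called, beside 17.3% of all genes: SLK, AL133355.1 and ITPRIP rose and SH3PXD2A fell. SLK, a Ste20-like kinase gene whose lowest coordinate lies 84.7 kb above that of STN1, had 26.8 and 30.3 FPKM with shRNA 1, 23.4 and 30.0 with shRNA 2, 11.8 and 13.2 in 0 mM controls and 12.9 and 11.9 in 20 mM controls. It was higher in all 4 shRNA libraries (log2 fold change 1.09, SE 0.12; adjusted p = 0.00219), under all 15 alternatives. Whether reads on AL133355.1 come from STN1 transcripts, and so repeat the rise STN1 was chosen for, was not tested. AL133355.1 (chr10:103877374-103879761, minus strand), annotated as a sense overlapping transcript, lies on the strand of STN1 past its annotated 3′ end. It had 9.39 and 7.80 FPKM with shRNA 1, 4.73 and 5.75 with shRNA 2, 2.61 and 2.36 in 0 mM controls and 3.48 and 2.28 in 20 mM controls (1.01, SE 0.15; adjusted p = 0.00653), a call lost without replicate 2 of the 20 mM controls (adjusted p = 0.0513). Its call with shRNA 2 alone (0.70, SE 0.18; adjusted p = 0.0353) was lost in 8 of 14 alternatives, which include leaving out either shRNA 1 library, replicate 2 of shRNA 2, either 0 mM control or replicate 2 of the 20 mM controls (adjusted p up to 0.161). COL17A1, which encodes a hemidesmosome collagen, was higher with shRNA 1 (1.11, SE 0.13; adjusted p = 0.00253) at 4.25 and 3.75 FPKM, beside 1.29 and 1.31 with shRNA 2 and 1.24 and 1.39 in 20 mM controls. ITPRIP was called by limma over both shRNAs (0.55, SE 0.12, adjusted p = 0.0210) and with shRNA 2 (0.82, adjusted p = 0.00781), not with shRNA 1 (0.27, adjusted p = 0.207). SH3PXD2A was called over both (-0.56, SE 0.12, adjusted p = 0.0204) and with shRNA 2 (-0.77, adjusted p = 0.0104), not with shRNA 1 (-0.35, adjusted p = 0.121). The calls of these genes over both shRNAs were lost with no filter, and without either shRNA 1 library or replicate 2 of the 20 mM controls. That of SH3PXD2A was also lost without replicate 1 of those controls.

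**Figure D3:**
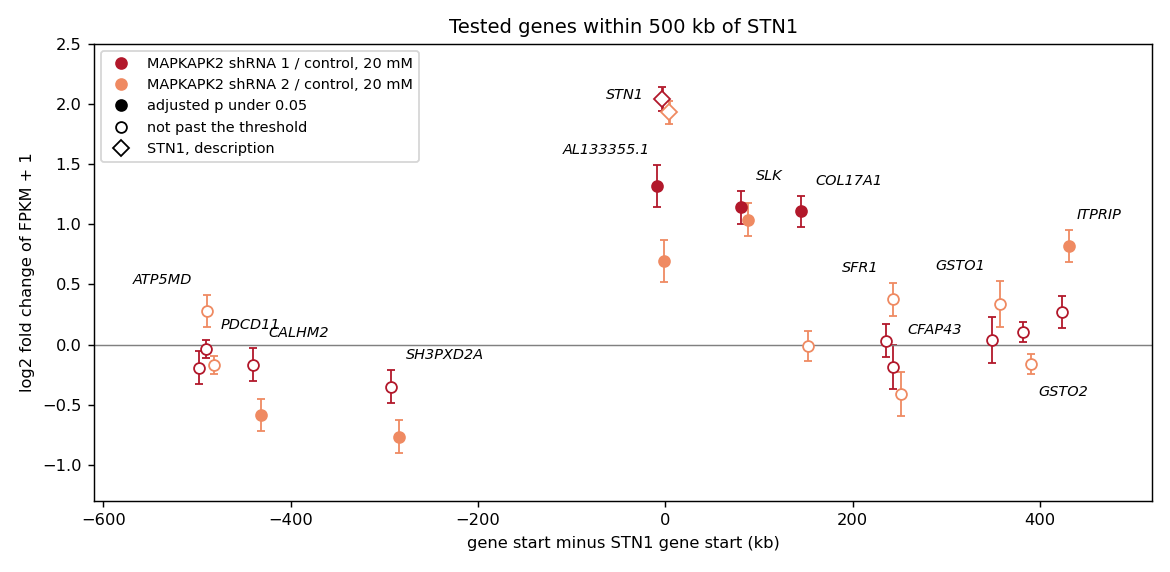
Log2 fold change of FPKM + 1 (vertical axis, bars standard error) of the tested genes within 500 kb of STN1, with shRNA 1 and shRNA 2 against control cells at 20 mM glucose, by distance of the lowest coordinate from that of STN1 (horizontal axis, kb; points moved slightly apart, and 2 microRNA genes not drawn). STN1 at 2.04 and 1.93, drawn as diamonds, carries no test; SLK at 1.14 and 1.04 and AL133355.1 at 1.32 and 0.70 passed with both shRNAs, though the AL133355.1 call with shRNA 2 was lost in 8 of 14 alternatives.

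Partners of these complexes were read from lists of known genes. Of 14 tested genes for telomerase RNA, its assembly and trafficking, SHQ1 rose and NAF1 and WRAP53 fell over both shRNAs, 3 of 14 beside 17.3% of all genes, which is near the background. NAF1, an assembly factor of box H/ACA particles, had 5.27 and 5.84 FPKM with shRNA 1, 5.24 and 5.89 with shRNA 2, 8.53 and 8.79 in 0 mM controls and 8.90 and 9.36 in 20 mM controls (log2 fold change -0.63, SE 0.08; adjusted p = 0.00409). WRAP53, which guides telomerase to Cajal bodies, gave -0.56 (SE 0.10, limma adjusted p = 0.0135), and SHQ1, a chaperone of dyskerin, 0.47 (SE 0.11, adjusted p = 0.0279). Taken alone, shRNA 1 gave a call for WRAP53 and SHQ1. The values with shRNA 2 did not pass (WRAP53 -0.39, adjusted p = 0.0664, and SHQ1 0.41, adjusted p = 0.0632). None of the 3 calls held without replicate 2 of the 20 mM controls, and 1, that of NAF1, held without replicate 1. DKC1, which encodes dyskerin itself, had 37.0 and 38.3 FPKM with shRNA 1, 18.8 and 20.7 with shRNA 2, 31.5 and 31.1 in 0 mM controls and 34.7 and 38.0 in 20 mM controls. It fell with shRNA 2 (-0.85, SE 0.09; adjusted p = 0.00166), not with shRNA 1 (0.05, SE 0.09; adjusted p = 0.736), and the shRNAs differed by -0.90 (shRNA 2 minus shRNA 1; SE 0.09; adjusted p = 0.00128). The telomerase RNA gene TERC had 1 read in 1 of the 20 mM control libraries and none in the other 7, and was not tested.

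PRIM1, the catalytic primase subunit that CST recruits with polymerase alpha, was the called gene among the 4 of that enzyme, beside 17.3% of all genes. It had 7.11 and 6.01 FPKM with shRNA 1, 6.37 and 5.89 with shRNA 2, 11.8 and 12.7 in 0 mM controls and 10.8 and 11.04 in 20 mM controls, lower in all 4 shRNA libraries (log2 fold change -0.70, SE 0.09; adjusted p = 0.00353), and held under all 15 alternatives. The values of the other subunits were 0.20 for POLA1, -0.20 for POLA2 and -0.01 for PRIM2. Of 6 genes of shieldin, which brings CST to DNA breaks, and its recruiters, TP53BP1 alone was called and fell (-0.41, SE 0.10, limma adjusted p = 0.0312), 1 of 6 beside the same 17.3%. TP53BP1 was called with shRNA 1 (-0.56) and not with shRNA 2 (-0.25). Its call over both was lost with no filter, and without either shRNA 1 library or either 20 mM control. MAD2L2 (-0.45), RIF1 (-0.25), SHLD2 (0.12) and SHLD3 (0.26) did not pass.

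Among 26 genes of telomere replication, end processing and end protection, none rose and 7 fell over both shRNAs (FEN1, TIMELESS, RPA2, PIF1, EXO1, BLM and DCLRE1B), beside 17.3% of all tested genes called in either direction. In all, 20 of the 26 had a log2 fold change below 0, with a median of -0.15 against -0.004 for all genes. FEN1, the flap nuclease of lagging-strand synthesis, had 35.9 and 32.7 FPKM with shRNA 1, 51.6 and 45.3 with shRNA 2, 45.6 and 45.9 in 0 mM controls and 61.8 and 63.9 in 20 mM controls (-0.61, SE 0.08; adjusted p = 0.00452). TIMELESS, a fork protection factor, had 15.1 and 14.5 FPKM with shRNA 1, 18.2 and 19.1 with shRNA 2, 28.7 and 28.8 in 0 mM controls and 24.4 and 24.3 in 20 mM controls (-0.52, SE 0.07; adjusted p = 0.00365). RPA2, a subunit of the single-strand binding protein RPA, gave -0.56 (SE 0.09; adjusted p = 0.00960). With shRNA 1 9 of the 26 were called, all lower, beside 19.8% of all genes. With shRNA 2 3 were called, all lower (RPA2, FEN1 and TIMELESS), beside 18.8% of all genes, so that count does not exceed the background. Without replicate 2 of the 20 mM controls 1 of the 7 calls was kept (TIMELESS), without replicate 1 of them 2 were (FEN1 and RPA2), and without either shRNA 1 library 3 or 4. BLM lost its call in every such fit but the one without replicate 2 of shRNA 2. Without glucose no gene of the 4 lists was called. There FEN1 gave -0.45 (adjusted p = 0.345), DCLRE1B -0.38 (adjusted p = 0.369), RPA2 -0.40 (adjusted p = 0.419) and PINX1, an inhibitor of telomerase, -0.51 (adjusted p = 0.528).

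**Figure D4:**
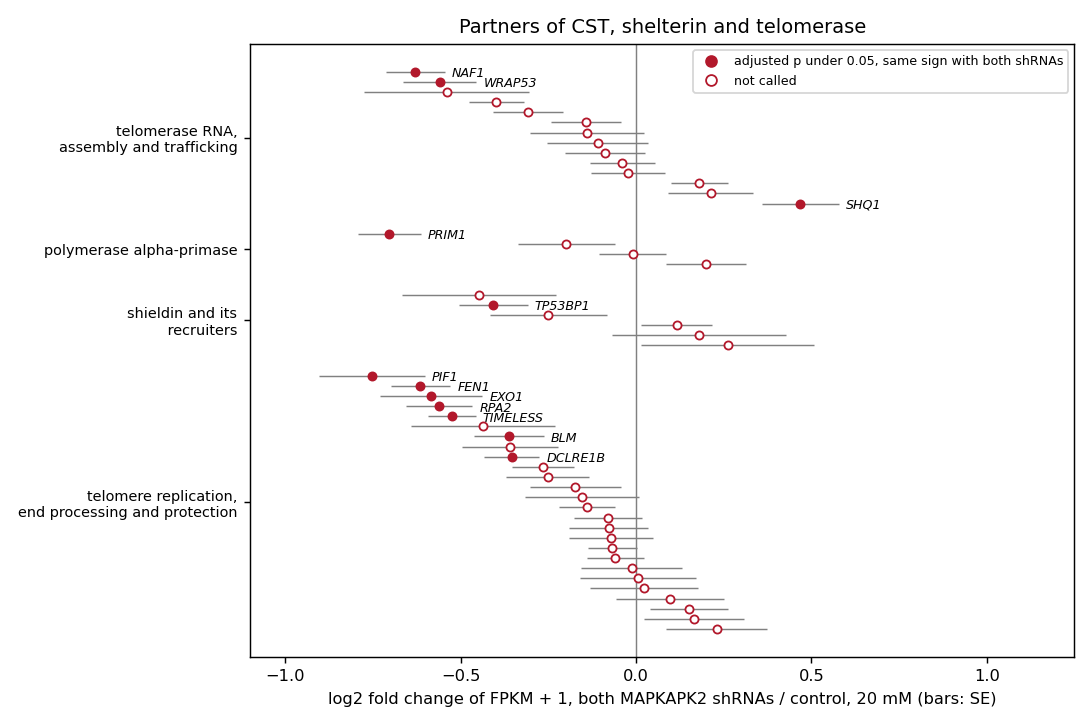
Log2 fold change of FPKM + 1 over both MAPKAPK2 shRNAs against control cells at 20 mM glucose (horizontal axis, bars standard error) for the tested genes of the 4 partner lists, sorted within each list. Filled, named dots were called; 20 of the 26 replication and end-processing genes lie below 0, of which 7 were called, and SHQ1 is the called gene above 0.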

How the data were processed

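RNA of 8 HCT116 libraries (4 groups of 2) was analysed from the FPKM table the authors deposited. DESeq2 1.20.0, HISAT2 2.0.5 and featureCounts 1.5.0-p3 are named in the submitters' processing notes, which record no setting, strand included. Gene names, positions and exon lengths of all 58735 rows match GENCODE 29 on GRCh38. FPKM times exon length returned whole reads for 100% of values (tolerance 0.001), which gave the read counts quoted and the voom fit.

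Groups were taken from the labels. Genes at 1 FPKM or more in at least 2 libraries (16239) were fitted as log2(FPKM + 1) with limma 3.58.1 in R 4.3.3: 4 group means, empirical Bayes with trend, 4 residual degrees of freedom, two-sided tests, Benjamini-Hochberg adjustment over all genes, threshold 0.05. The scale understates changes of low genes. For each gene the fit takes the same spread in all groups, although replicates did not differ equally. The chi-square per gene between the reads of replicates was 34.0 with shRNA 2 and 13.6 in 0 mM controls. It was 8.56 with shRNA 1 and 6.67 in 20 mM controls. A knockdown call (mean of both shRNAs minus control cells at 20 mM glucose) also needed the same sign with each shRNA. The fit was also run on simulated reads drawn with the same spread setting for all genes and groups. That differs from these data, so the simulation does not address unequal spread. Promoter windows came from RefSeq (GRCh38.p14).

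The named genes were drawn from the 10 members, the called genes and the 3 lowest p-values of each partner list, the genes tested within 500 kb of STN1 and the 5 profiles most like STN1. Not every gene so drawn is described. XRCC6, RPA3 and ZCCHC8 were also called lower with shRNA 1, and CALHM2 with shRNA 2. Members, lists and tests were chosen with earlier results of these data known. Where PINX1 was on 2 rows, the one with most reads was used. Alternatives were a pseudocount of 0.1, no filter, limma voom, quantile normalization, protein-coding genes only, only the groups compared, a replicate block, and leaving out each library.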

Additional observations from a re-analysis of the deposited data

Results flagged for a closer look

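The results below stood out because the effects of the 2 MAPKAPK2 shRNAs differed by a test of the difference itself; groups of 2 libraries allowed no search for single outlying libraries. All are log2 differences, shRNA 2 minus shRNA 1, from limma. Among the telomere genes, TERF1 gave 0.41 (adjusted p = 0.0256), TERF2 -0.75 (adjusted p = 0.00169) and TERF2IP -0.39 (adjusted p = 0.0230). TERF2 was the one gene of the 10 called in opposite directions with the 2 shRNAs. MAPKAPK2, the target, differed by -0.95 (adjusted p = 0.00124), at 0.982 and 0.800 FPKM with shRNA 2 and 2.77 and 2.54 FPKM with shRNA 1.

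Of the partner genes, DKC1 differed by -0.90 (adjusted p = 0.00128). ZCCHC8 (0.61; adjusted p = 0.0115) and NOP10 (0.57; adjusted p = 0.0300) were higher with shRNA 2, as were FEN1 (0.48; adjusted p = 0.0148), RPA1 (0.35; adjusted p = 0.0238), TIMELESS (0.32; adjusted p = 0.0293) and RPA3 (0.56; adjusted p = 0.0462). Near STN1, COL17A1 differed by -1.12 (adjusted p = 0.00197), AL133355.1 by -0.62 (adjusted p = 0.0462), ITPRIP by 0.55 (adjusted p = 0.0284) and ATP5MD by 0.47 (adjusted p = 0.0487). ATP5MC1, one of the profiles most like STN1, differed by -0.56 (adjusted p = 0.0493).

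Many of these differences lost their call under some of the 15 alternatives (14 for AL133355.1, which is not protein-coding). Those of TERF2, MAPKAPK2, DKC1 and COL17A1 held under all 15. The calls of ZCCHC8 and FEN1 were lost in 3 each, of TERF2IP in 4, of ITPRIP in 5, of RPA1 in 6, of TERF1 and NOP10 in 7 each, of TIMELESS, RPA3 and AL133355.1 in 9 each, of ATP5MC1 in 10 and of ATP5MD in 11. Each of these genes' calls was lost with only the groups compared and when either shRNA 1 library was left out.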

How the results depend on the processing

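No called result changed sign under any alternative. Of the members, TERF2IP kept its knockdown call under all 15 alternatives, TERF1 lost it without either 20 mM control and TERT without replicate 1 of them. With no filter, TERT lost its call with shRNA 1 (adjusted p = 0.0543) and TERF1 its difference between the shRNAs (adjusted p = 0.0505); after quantile normalization TERF1 with shRNA 2 passed (adjusted p = 0.0491). The genes called over both shRNAs numbered 2816, or 1814 with no filter; those called with shRNA 2 numbered 3055, or 1714 with only the groups compared; those between the shRNAs 3602, or 1814 with only the groups compared, where 1 member (TERF2) of 3 was kept. Without glucose 0 genes were called, against 6 with no filter, 28 with voom and 8 among protein-coding genes alone. Leaving out 1 library gave 696 to 3454 genes and 1 to 3 members over both shRNAs, 985 to 4070 genes and 2 to 5 members with shRNA 1, 1021 to 3045 genes and 1 to 3 members with shRNA 2, 1376 to 3496 genes and 1 to 3 members between the shRNAs, and 0 to 1 genes and 0 members without glucose. A fit that leaves out 1 library has fewer residual degrees of freedom and takes the lone library of its group to vary like the others. Deviations of same-numbered libraries had correlations of -0.0295 to 0.179, the highest between shRNA 2 and the 0 mM controls. Whether libraries of those groups shared a batch was not tested. With the replicate block 3018 genes were called over both shRNAs, 3470 with shRNA 1, 3332 with shRNA 2, 3806 between them and 0 without glucose, and no call of a member changed; among the other named genes the differences of ATP5MD and RPA3 between the shRNAs lost theirs and WRAP53 passed with shRNA 2. TEN1 and TERC did not pass the expression filter and were not tested, so their low counts are given without a conclusion on their levels. Most TEN1 exon bases are also shared with TEN1-CDK3.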
